A study of Homo sapiens with 12 samples.

Results

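The genes described here encode the proteins of the human mitochondrial ribosome. Members were all probe sets annotated with exactly 1 symbol that starts with MRPL or MRPS followed by a digit. This gave 142 of the 54675 probe sets of the array and 77 of the 19775 genes that could be named by a single symbol. Of the 77, 75 are ribosomal protein genes, 48 with an MRPL symbol (counted as large subunit) and 27 with an MRPS symbol (counted as small subunit). MRPS30 and MRPS18A sit in the large subunit despite their symbols, and counts by structure are given further below. The other two are MRPL20-AS1, an antisense RNA gene, and MRPL45P2, a pseudogene, and they are kept apart from all counts. Another 4 probe sets with such a symbol carried several symbols and were not used, which left MRPS24 and MRPL53 without a value. No filter on low values was applied, so all 75 genes were tested.

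The samples were cultures of KOPT-K1 and HPB-ALL, established lines of human T-cell acute lymphoblastic leukaemia. Each line received SAHM1 at 20 µM or the matching volume of its solvent DMSO for 24 hours, with 3 cultures per treatment and 1 Affymetrix U133 Plus 2.0 array per culture, 12 arrays in all. SAHM1 is a stapled peptide derived from the coactivator MAML1, made to block assembly of the NOTCH transcription complex. Every deposited value was a ratio to the mean of the 3 DMSO arrays of the same line, so the files held responses and no expression levels. The 2 lines could therefore not be compared in DMSO, and the T-cell label could not be checked on marker levels. Each line stands for 1 donor's leukaemia, and no control peptide was among the arrays used. The comparison asks how blocking the NOTCH complex moved these genes in each line.

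Mitochondrial ribosomes translate the few messages of mitochondrial DNA, all for subunits of the respiratory chain and ATP synthase. Their RNAs come from mitochondrial DNA, but every protein is encoded in the nucleus, made in the cytosol and imported. The large subunit joins amino acids and holds the exit tunnel, whereas the small subunit reads the message. Some proteins have counterparts in all ribosomes, others only in bacteria, and many belong to mitochondria alone.

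In HPB-ALL the group shifted down: 21 of the 75 genes fell (28%) and 0 rose, against 4.38% and 4.96% of all 19775 genes. In KOPT-K1 11 genes rose (14.7%) against 5.85% of all genes, and 10 fell (13.3%), the share found over all genes (13.2%). Here and below, a gene fell or rose where its Benjamini-Hochberg adjusted p from limma's moderated test, two-sided and taken over all 19775 genes, was under 0.05. The median log2 change was -0.12 in HPB-ALL and -0.02 in KOPT-K1, beside -0.02 and 0.00 over all genes. In HPB-ALL 63 of the 75 log2 changes were below 0, and in KOPT-K1 39 were. Each array measured the RNA of a whole culture, so fewer cells with a transcript and less transcript per cell cannot be told apart. At an unadjusted p under 0.05, 33 genes (44%) were lower and 1 (1.33%) was higher in HPB-ALL, against 11.1% and 10.9% of all genes.

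**Figure D1:**
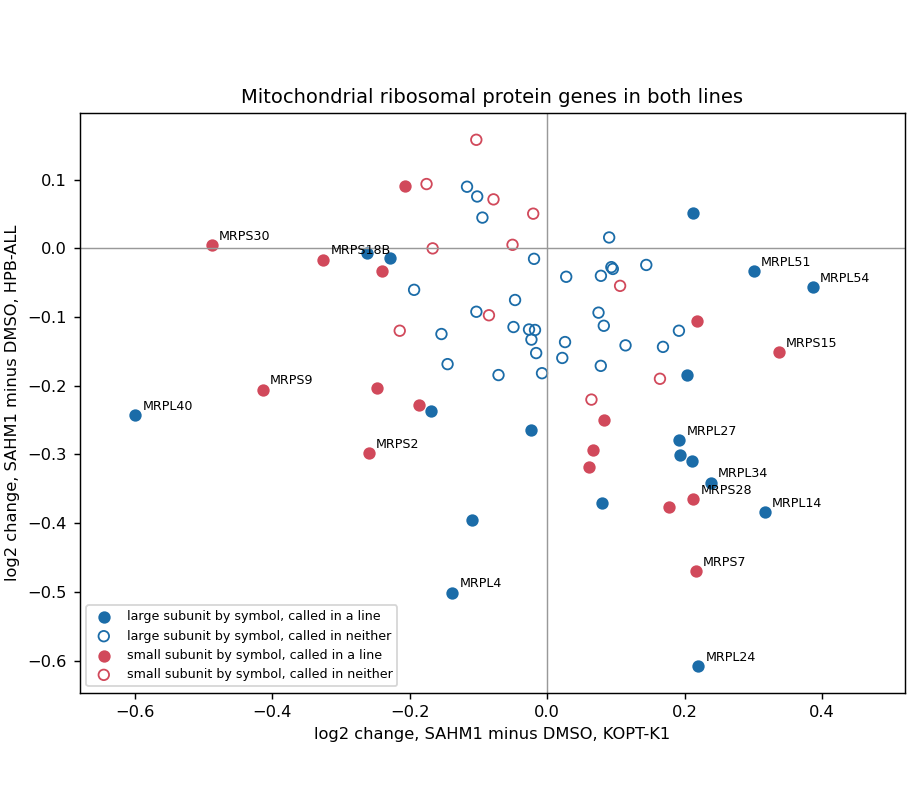
Log2 change of each of the 75 genes (SAHM1 minus DMSO, 3 against 3 arrays) in KOPT-K1 on the horizontal axis and in HPB-ALL on the vertical axis, coloured by subunit as given by the symbol and filled where the gene passed the test in at least 1 line. Most points lie below 0 on the vertical axis (63 of 75), and they spread to both sides on the horizontal axis.

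The counts moved with single arrays. In HPB-ALL the 21 became 10 without SAHM1 replicate 2, 11 without DMSO replicate 3 and 13 without SAHM1 replicate 1. In KOPT-K1 the 10 that fell became 6 without DMSO replicate 1, DMSO replicate 2 or SAHM1 replicate 2. The 11 that rose there became 3 without SAHM1 replicate 1, 4 without DMSO replicate 2, 5 without DMSO replicate 1 or SAHM1 replicate 3, and 6 without DMSO replicate 3. Leaving out an array leaves fewer arrays for every gene, and the shares over all genes are not given for these fits. The smaller counts therefore cannot be read as particular to the members. Quantile normalization of the ratios left 8 falls in HPB-ALL, against 1.41% of all genes, and 0 changes in KOPT-K1 by limma, against 0.561% lower and 0.126% higher. It left 24 (32%) and 12 (16%) members at an unadjusted p under 0.05, against 13.1% and 11% of all genes. That step gives all arrays a common distribution, whereas the DMSO ratios of each line average 1 by construction. The median standard error grew from 0.0660 to 0.0772 in the members and from 0.0848 to 0.0989 over all genes. Calls lost there are therefore no separate result about the members. Fitted on its 6 arrays alone, KOPT-K1 had 6 falls (8%) and 3 rises (4%), close to the 9.62% and 3.15% of all genes. At an unadjusted p under 0.05 in that limma fit, 16 members (21.3%) were lower and 17 (22.7%) higher, against 18.5% and 10.9% of all genes. With the level of 18S ribosomal RNA as a covariate, 0 members passed limma's test in HPB-ALL, against 0.106% of all genes lower, and 16 (21.3%) had an unadjusted p under 0.05, against 8.21% of all genes.

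That 18S level differed between the HPB-ALL groups. The mean log2 ratio of its 3 control probe sets was 1.05, -1.01 and -1.65 on the DMSO arrays of HPB-ALL, and 1.73, 1.89 and 1.35 on the SAHM1 arrays. On the same arrays the median log2 ratio of the 75 genes was 0.01, 0.00 and 0.00 in DMSO, and -0.15, -0.15 and -0.10 in SAHM1. Over the 21 genes that fell in HPB-ALL the medians were -0.02, 0.01 and 0.01 in DMSO, and -0.35, -0.31 and -0.29 in SAHM1. These 21 were picked by their fall on these same arrays, so their lower SAHM1 medians follow from the choice. The DMSO array with the 18S level of 1.05 had medians of 0.0083 over all 75 genes and -0.0236 over the 21. A link of these small differences with the 18S level was not tested. With the covariate the median log2 change of the members in HPB-ALL was -0.14, and the median standard error grew from 0.07 to 0.11. In KOPT-K1 the 18S level ran from -0.17 to 0.13 in DMSO and from -0.39 to -0.14 in SAHM1.

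**Figure D2:**
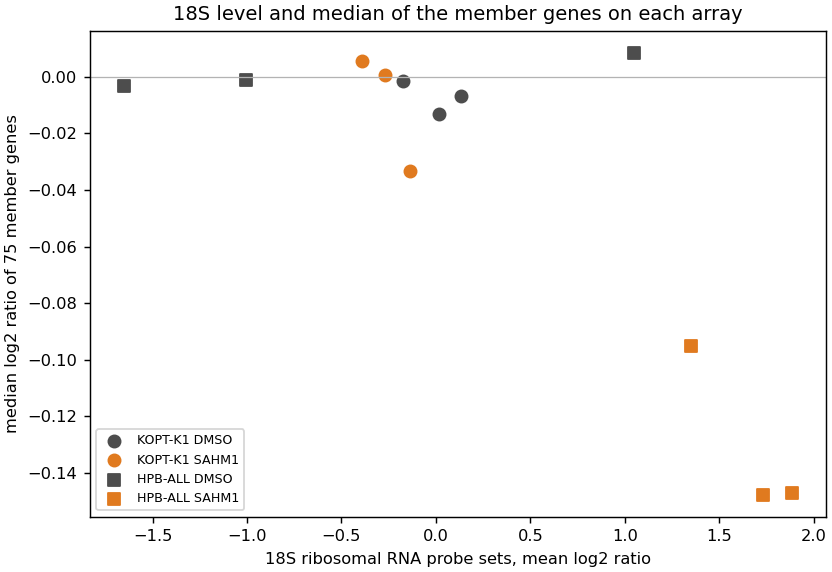
Median log2 ratio of the 75 genes on each of the 12 arrays against the mean log2 ratio of the 3 probe sets for 18S ribosomal RNA, with KOPT-K1 as circles, HPB-ALL as squares, DMSO in grey and SAHM1 in orange. The 3 SAHM1 arrays of HPB-ALL lie lowest on the vertical axis, between -0.15 and -0.10, and farthest right on the horizontal axis, from 1.35 to 1.89.

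Other technical measures moved with treatment too, and their part in these results was not tested beyond the fits named. The 18 hybridization spike probe sets averaged -0.02 to 0.01 on the KOPT-K1 DMSO arrays and 0.60 to 1.05 on its SAHM1 arrays. With the spike level as a covariate 4 members fell and 1 rose in KOPT-K1, against 2.56% and 1.02% of all genes, and 15 fell in HPB-ALL, against 2.71%. The median standard error of the members in KOPT-K1 was then 0.09, beside 0.07 without the covariate. The 5′ minus 3′ difference of ACTB lay between -0.03 and 0.05 on all DMSO arrays, between -0.22 and -0.09 with SAHM1 in KOPT-K1, and between -0.41 and -0.09 in HPB-ALL. That of GAPDH stayed between -0.06 and 0.07 on every array. Of 8 T-lineage marker genes, 0 passed limma's test in KOPT-K1 (2 were lower at an unadjusted p under 0.05), where 13.2% of all genes fell and 5.85% rose. In HPB-ALL 3 fell (37.5%) and 1 rose (12.5%), against 4.38% and 4.96% of all genes.

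The promoters of the members share short sequences. The RefSeq table of GRCh38.p14, which gives 250 bases before and 50 bases after each gene start, matched 67 of the 75 genes with 83 windows. The letters AAGATGGC, bound by YY1, stood on either strand in 26.5% of the member windows and in 2.89% of all 35116 windows. The ETS letters CCGGAAGT, which GABPA can bind, stood in 15.7% against 4.14%. The NRF1 letters GCATGCGC stood in 7.23% against 3.05%, the E-box CACGTG of MYC and MAX in 10.8% against 7.26%, and the RBPJ letters GTGGGAA, for the DNA-binding factor of the NOTCH complex, in 7.23% against 6.25%. None of the 5 words contains another, but NRF1 matches on both strands can overlap each other. Among protein-coding windows the shares were 3.53% for YY1, 5.34% for ETS, 3.74% for NRF1, 8.34% for the E-box and 6.01% for RBPJ.

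Most YY1 matches lay just past the gene start, 15 of 23 after it. In the 150 bases before the start the share was 4.82% of member windows and 0.814% of all windows. For the E-box it was there 4.82% of member windows, 4.57% of all and 5.37% of protein-coding ones, so the gap of the longer window was absent. The following 30-base stretches show the YY1 letters, in capitals, in named members, given 5′ to 3′ along the gene. They show the same word in genes that fell, rose or did not pass the test.
MRPS7: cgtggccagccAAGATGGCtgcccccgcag
MRPL51: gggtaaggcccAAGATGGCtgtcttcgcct
MRPS30: aatcgcgggcaAAGATGGCggcggccaggt
MRPS18B: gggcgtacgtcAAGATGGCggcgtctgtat
MRPS10: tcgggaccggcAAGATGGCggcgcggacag
MRPS18A: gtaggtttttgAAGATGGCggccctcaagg
The stretch of MRPS7 is chr17:75261887-75261916 on the plus strand, that of MRPS30 chr5:44808949-44808978 on the plus strand, and that of MRPS18B chr6:30617852-30617881 on the plus strand. On the minus strand lie those of MRPL51 at chr12:6493223-6493252, MRPS10 at chr6:42217834-42217863 and MRPS18A at chr6:43687764-43687793. In these 6 the first motif base lay between 9 and 23 bases past the start base.

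The word occurred with each kind of response. It stood in 3 of the 10 genes that fell in KOPT-K1, in 2 of the 10 that rose and have a window, and in 15 of the 47 others. In HPB-ALL it stood in 3 of the 19 genes with a window that fell and in 17 of the 48 others. The ETS letters stood in 0 of the 10 genes that fell in KOPT-K1, in 3 of the 10 that rose and in 8 of the 47 others. In HPB-ALL they stood in 2 of the 19 that fell and in 9 of the 48 others. The NRF1 letters stood in 1, 0 and 5 genes of these KOPT-K1 groups, and in 1 and 5 of those of HPB-ALL. MRPS18B, which fell in KOPT-K1, has an NRF1 match that is not shown. The ETS and NRF1 letters below, in capitals, lay before the start of some named members that passed the test in a line.
MRPL27 (ETS): ccacgcagggcCCGGAAGTagatctcctga
MRPS34 (ETS): ctcttccggtgACTTCCGGccggaccgctg
MRPL16 (ETS): gagtgaacacaACTTCCGGccccactgagc
MRPL51 (ETS): ggcgctccaaaACTTCCGGcaggcggaccg
MRPL17 (NRF1): caggctctgatGCGCATGCgcaaacacgtt
All 5 lie on the minus strand, at chr17:50373218-50373247, chr16:1773136-1773165, chr11:59810767-59810796, chr12:6493364-6493393 and chr11:6683403-6683432 in that order. MRPL14, MRPL34, MRPS9 and MRPS7 held none of the 5 words in the 250 bases before their first listed start, which says only that these letters are not in that window.

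Among the genes, 5 rose in KOPT-K1 and fell in HPB-ALL: MRPL14, MRPL27, MRPL34, MRPS7 and MRPS28. MRPL14 sits at the face of the large subunit that meets the small one. Its log2 ratios in KOPT-K1 were 0.12, -0.03 and -0.09 in DMSO and 0.31, 0.26 and 0.36 in SAHM1, and in HPB-ALL -0.01, -0.01 and 0.01 against -0.41, -0.37 and -0.37. The groups did not overlap in either line. MRPL14 rose by 0.32 ± 0.06 (SE, n = 3 against 3) in KOPT-K1 (limma adjusted p = 0.00446) and fell by 0.38 ± 0.06 in HPB-ALL (adjusted p = 0.0026), and its response in HPB-ALL less that in KOPT-K1 was -0.70 ± 0.09 (adjusted p = 0.00042).

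MRPS7 belongs to the head of the small subunit, where it binds the ribosomal RNA. It read 0.06, -0.02 and -0.04 in KOPT-K1 DMSO and 0.25, 0.19 and 0.21 in SAHM1, and -0.06, 0.05 and 0.00 in HPB-ALL DMSO and -0.41, -0.53 and -0.47 in SAHM1. All SAHM1 arrays lay above DMSO in the first line and below it in the second. The log2 changes of MRPS7 were 0.22 ± 0.06 (SE, limma adjusted p = 0.0233) and -0.47 ± 0.06 (adjusted p = 0.000577). Its difference between the lines was -0.69 ± 0.08 (adjusted p = 0.000317). Among the 24 members with a difference between lines past the threshold, MRPL14 and MRPS7 were the ones that kept it without any single array and under every other setting that gave them a value. MRPL14 has 1 probe set, of the _s_at kind, so leaving such probe sets out gave it none. The KOPT-K1 rise of MRPS7 lost its call without DMSO replicate 2, DMSO replicate 3 or SAHM1 replicate 1, with limma adjusted p up to 0.0769.

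MRPL34, a small RNA-binding protein of the large subunit, read 0.30, 0.13 and 0.28 with SAHM1 in KOPT-K1 and -0.41, -0.31 and -0.30 in HPB-ALL, with DMSO between -0.04 and 0.03. MRPL27, whose bacterial counterpart reaches the site of peptide bond formation, read 0.27, 0.13 and 0.18 and then -0.33, -0.27 and -0.24, with DMSO between -0.03 and 0.02. MRPS28, a small subunit protein, read 0.24, 0.17 and 0.23 and then -0.36, -0.40 and -0.34, with DMSO between -0.10 and 0.12. In all 3 the SAHM1 arrays lay clear of DMSO in both lines. Their differences between lines were -0.58 ± 0.09 (SE) for MRPL34, -0.47 ± 0.08 for MRPL27 and -0.58 ± 0.09 for MRPS28, with limma adjusted p of 0.00124, 0.00234 and 0.00134. Their falls in HPB-ALL held without any single array, but their rises in KOPT-K1 did not, with adjusted p up to 0.0692, 0.102 and 0.0908. None of these rises, nor that of MRPS7, passed when single probe sets were tested over all 54613, where MRPL14 did.

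**Figure D3:**
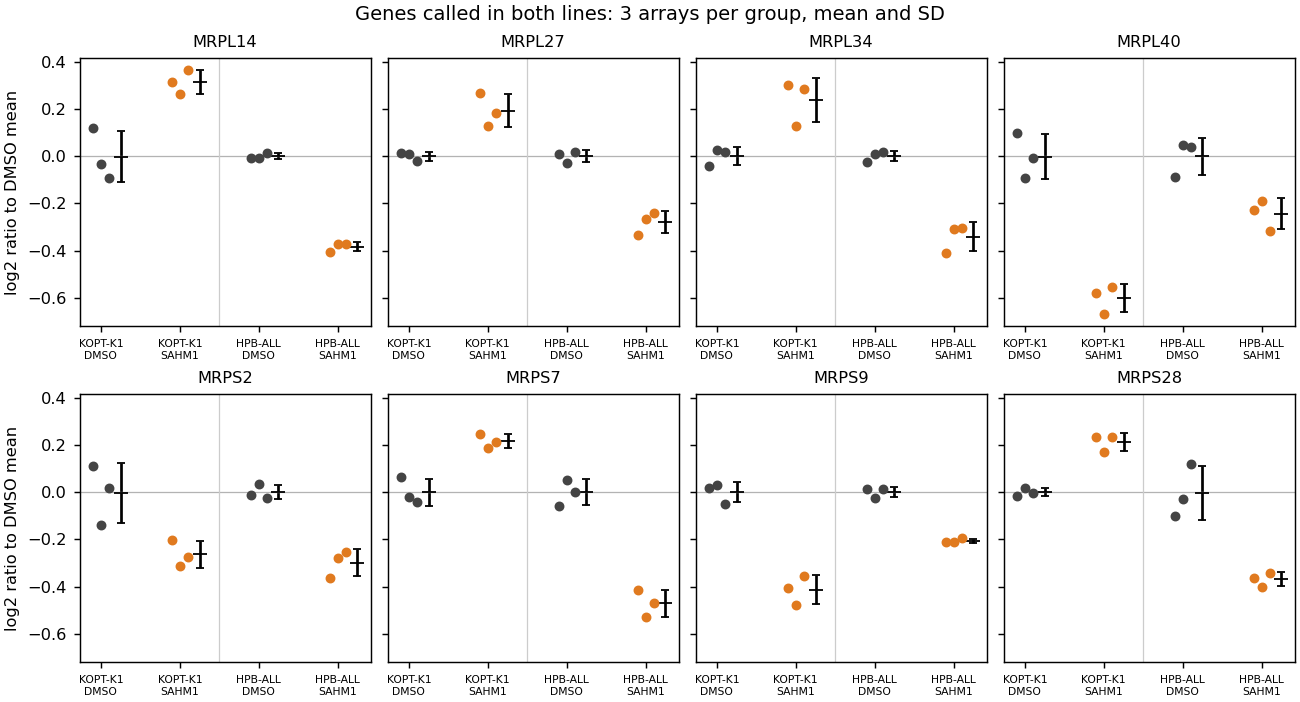
Log2 ratio to the line's DMSO mean on every array for the 8 genes that passed the test in both lines, with DMSO in grey and SAHM1 in orange, and beside each group its mean and SD (3 arrays). MRPL14, MRPL27, MRPL34, MRPS7 and MRPS28 lie above DMSO in KOPT-K1 and below it in HPB-ALL, whereas MRPL40, MRPS2 and MRPS9 lie below DMSO in both.

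Another 3 genes fell in both lines: MRPL40, MRPS2 and MRPS9. Tested as single probe sets over all 54613, none of the 3 passed in HPB-ALL, with limma adjusted p of 0.114, 0.053 and 0.119 in that order. MRPL40, a protein of the central protuberance found in mitochondria alone, read 0.10, -0.09 and -0.01 in KOPT-K1 DMSO and -0.58, -0.67 and -0.56 in SAHM1. It fell there by 0.60 ± 0.07 (SE, limma adjusted p = 0.000166), the lowest log2 change of the 75 in that line. In HPB-ALL it read -0.09, 0.05 and 0.04 and then -0.23, -0.19 and -0.32, a change of -0.24 ± 0.07 (adjusted p = 0.0457). The HPB-ALL call was lost without any one of 8 of the 12 arrays, with adjusted p up to 0.165. The KOPT-K1 call held without any single array.

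MRPS9, whose bacterial counterpart touches the transfer RNA in the peptidyl site, read -0.41, -0.48 and -0.36 with SAHM1 in KOPT-K1 and -0.21, -0.21 and -0.20 in HPB-ALL, with DMSO between -0.05 and 0.03. Its changes were -0.41 ± 0.06 (SE, limma adjusted p = 0.000415) and -0.21 ± 0.06 (adjusted p = 0.0346). The first held without any single array, and the second was lost without any 1 of the 6 HPB-ALL arrays (adjusted p up to 0.11). MRPS2, a small subunit protein shared by all ribosomes, fell by 0.26 ± 0.07 and 0.30 ± 0.07 (adjusted p = 0.0215 and 0.0186). Its SAHM1 arrays lay below DMSO in both lines, and both calls were lost without any one of 4 arrays of the line concerned (adjusted p up to 0.088 and 0.0748). Its difference between lines was -0.04 ± 0.10, with adjusted p = 0.83.

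In HPB-ALL 13 further genes fell without passing the test in KOPT-K1. MRPL24, a large subunit protein near the exit tunnel, had the lowest change of all members there. It read -0.08, 0.12 and -0.05 in DMSO and -0.68, -0.69 and -0.46 in SAHM1, so the groups were far apart. The change was -0.61 ± 0.09 (SE, limma adjusted p = 0.00131), a level 1.52-fold lower. In KOPT-K1 MRPL24 read -0.14, 0.12 and 0.01 against 0.29, 0.17 and 0.19, a change of 0.22 ± 0.09 that missed the threshold (adjusted p = 0.1). Its difference between lines, -0.83 ± 0.12 (adjusted p = 0.00113), was the largest in size of the 75.

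MRPL4, which lines the exit tunnel, read -0.14, 0.09 and 0.04 in HPB-ALL DMSO and -0.34, -0.59 and -0.58 in SAHM1. The change was -0.50 ± 0.09 (SE, limma adjusted p = 0.00534), and all 3 of its probe sets passed, against falls in 2.06% of all 54613. MRPL15, of the large subunit, had the tightest arrays, with -0.02, 0.00 and 0.02 in DMSO and -0.37, -0.38 and -0.37 in SAHM1 (adjusted p = 0.000892). MRPL17, close to the tunnel exit, read -0.10, 0.09 and 0.00 and then -0.41, -0.42 and -0.36 (adjusted p = 0.00289). MRPS34, needed for a stable small subunit, read 0.08, -0.05 and -0.03 and then -0.37, -0.30 and -0.29 (adjusted p = 0.00756). In each of these genes the 3 SAHM1 arrays lay below the 3 DMSO arrays. These 5, with MRPL14, MRPL27, MRPL34, MRPS7 and MRPS28, are the 10 of 21 that kept the call without any single array.

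The other eight were MRPL11, MRPL12, MRPL37, MRPL46, MRPS12, MRPS17, MRPS26 and MRPS33, with log2 changes from -0.38 to -0.23, and each lost its call without at least 1 array. Of all 21 falls in HPB-ALL, 14 had a probe set past the threshold on its own and 7 had none. The 7 were MRPL37, MRPL40, MRPL46, MRPS2, MRPS9, MRPS17 and MRPS33. MRPL12 is part of the stalk that recruits translation factors, and MRPL11 lies at its base. MRPL12 fell by 0.31 ± 0.08 (SE, limma adjusted p = 0.0344) over 2 probe sets that differed, at -0.61 and -0.01, and its call was lost without any 1 of the 6 HPB-ALL arrays. MRPS12, at the decoding centre, fell by 0.29 (adjusted p = 0.0277), and 2 of its 4 probe sets passed. MRPS26 fell by 0.38 ± 0.08 (adjusted p = 0.0113), with 1 of 2 probe sets passing. The largest positive changes in HPB-ALL missed the threshold, 0.16 ± 0.06 for MRPS18A (adjusted p = 0.136) and 0.09 ± 0.09 for MRPL39 (adjusted p = 0.624).

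In KOPT-K1 7 genes fell that did not pass in HPB-ALL. MRPS30, which despite its symbol sits in the large subunit, read 0.09, 0.02 and -0.12 in DMSO and -0.51, -0.58 and -0.39 in SAHM1. It fell by 0.49 ± 0.07 (SE, limma adjusted p = 0.000833), all 3 of its probe sets passed, and its change in HPB-ALL was 0.00 ± 0.07. Its difference between lines, 0.49 ± 0.10 (adjusted p = 0.0064), was the largest positive one. MRPS18B, a small subunit protein, read 0.05, 0.04 and -0.09 and then -0.30, -0.36 and -0.32, and both of its probe sets passed (adjusted p = 0.00482 for the gene). In both genes the SAHM1 arrays lay below DMSO in KOPT-K1 and among the DMSO values in HPB-ALL.

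For the other five the fall rested on part of their probe sets, where 9.8% of all 54613 probe sets fell in KOPT-K1. In MRPL19 1 of 3 probe sets passed, at -0.61 beside -0.14 and -0.03, and in MRPS5 1 of 4 did, at -0.62 beside values from -0.12 to 0.00. In MRPL30 2 of 5 passed, and in MRPS10 1 of 3. MRPS25 held values of -0.39, 0.13 and -0.48, of which the first passed. All 5 lost the gene-level call without at least 1 array, with limma adjusted p up to 0.134. The other members of the MRPS18 family, MRPS18A and MRPS18C, had KOPT-K1 changes of -0.10 and -0.02 and did not pass.

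Besides the 5 genes with opposed calls, 6 rose in KOPT-K1: MRPL16, MRPL33, MRPL51, MRPL54, MRPS6 and MRPS15. MRPL54, a protein found in mitochondria alone, read -0.02, 0.04 and -0.02 in DMSO and 0.44, 0.32 and 0.39 in SAHM1. MRPL51, likewise without a bacterial counterpart, read 0.02, -0.01 and -0.01 and then 0.29, 0.33 and 0.29. Their changes were 0.39 ± 0.06 (SE, limma adjusted p = 0.00123) and 0.30 ± 0.05 (adjusted p = 0.00215), and both groups of arrays stood clear of each other. In HPB-ALL the changes were -0.06 ± 0.06 and -0.03 ± 0.05, with SAHM1 values overlapping those of DMSO.

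MRPL14, MRPL51 and MRPL54 were the 3 of 11 rises that held without any single array, and also the 3 with a probe set past the threshold over all 54613, of which 4.75% rose. MRPS15, an early binder of the small subunit RNA, rose by 0.34 ± 0.09 (SE, limma adjusted p = 0.0237), but none of its 4 probe sets passed alone, at 0.13 to 0.66. MRPL16, MRPL33 and MRPS6 had changes of 0.20 to 0.22. MRPL16 lost the call without any one of 9 of the 12 arrays, MRPL33 likewise without any one of 9, and MRPS6 without either of 2.

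**Figure D4:**
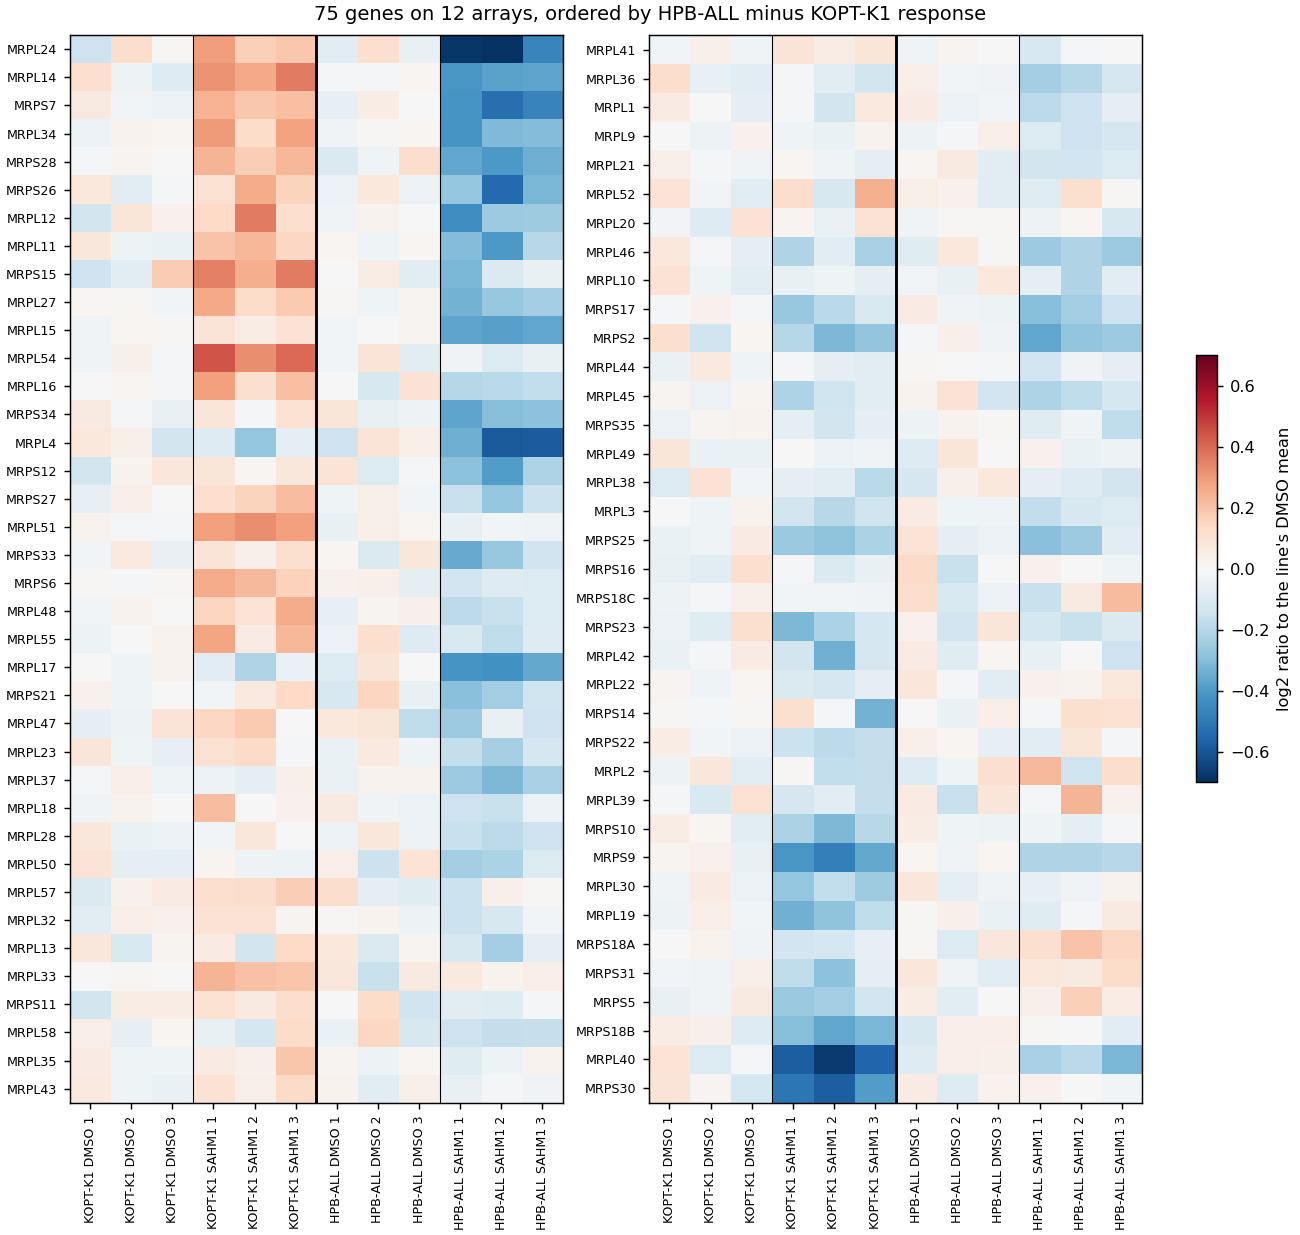
Log2 ratio to the line's DMSO mean for each of the 75 genes (one per line of the map) on the 12 arrays (columns), in 2 panels ordered from the lowest to the highest HPB-ALL minus KOPT-K1 response, with blue below and red above the DMSO mean. The top of the left panel (MRPL24, MRPL14, MRPS7) is red in KOPT-K1 and blue in HPB-ALL with SAHM1, and the foot of the right panel (MRPS30, MRPL40, MRPS18B) is blue in KOPT-K1.

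The response itself differed between the lines in 24 members, lower in HPB-ALL for 20 (26.7%) and higher for 4 (5.33%), against 5.41% and 11.4% of all genes. The median difference was -0.12, beside -0.03 over all genes. Without probe sets of the _x_at and _s_at kinds, 44 members had a value. Their median difference was -0.03, as over all genes in that fit, and 23 of the 44 differences were below 0. The count of 4 became 1 without KOPT-K1 DMSO replicate 1, KOPT-K1 SAHM1 replicate 2 or HPB-ALL SAHM1 replicate 1 or 2, and 2 without KOPT-K1 DMSO replicate 2. With the 18S covariate limma called 2 members lower and 0 higher, against 0.228% and 1.41% of all genes, with 23 (30.7%) at an unadjusted p under 0.05, against 16.5%. Quantile normalization gave 6 lower and 0 higher, against 0.288% and 0.779%, and the spike covariate 5 lower and 0 higher, against 0.273% and 0.996%. At an unadjusted p under 0.05, limma then had 1 and 4 members higher. Across the 75 genes the changes in the 2 lines had a Pearson r of -0.26 and a Spearman rho of -0.29, beside -0.14 and -0.12 over all genes. Genes are not replicates, and they share the same arrays.

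The subunits, taken by symbol, were set side by side by counts and medians. In HPB-ALL 12 of 48 large subunit genes (25%) and 9 of 27 small subunit genes (33.3%) fell, against 4.38% of all genes. The median log2 change was -0.12 in each. In KOPT-K1 3 large subunit genes fell (6.25%) and 7 rose (14.6%), with a median of 0.02, against 13.2% and 5.85% of all genes. Of the small subunit genes 7 fell (25.9%) and 4 rose (14.8%), with a median of -0.08. On single arrays the large minus small median, by symbol only, was 0.04, 0.07 and 0.09 with SAHM1 in KOPT-K1 and -0.02 to 0.02 in its DMSO arrays, so these did not overlap. In HPB-ALL it was 0.01, -0.05 and 0.00 with SAHM1 and -0.01 to 0.03 in DMSO.

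The KOPT-K1 gap between subunits depended on 2 genes with an MRPS symbol. RefSeq's synonyms place MRPS30 and MRPS18A in the large subunit. Counted there, the large subunit had 4 falls (8%) and 7 rises (14%) among 50 genes, with a median of 0.01. The small had 6 (24%) and 4 (16%) among 25, with a median of -0.05. The large minus small difference of medians then fell from 0.10 to 0.06. Kept by symbol, it was 0.05 when SAHM1 replicate 3 was left out. In HPB-ALL the count by structure moved it from 0.00 to 0.03. No test was made of this difference.

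By origin, 10 of 26 proteins shared by all ribosomes fell in HPB-ALL (38.5%), 4 of 18 shared with bacteria (22.2%), and 6 of 30 found in mitochondria alone (20%). Over all genes 4.38% fell. The medians of the 3 classes were -0.15, -0.12 and -0.08. In KOPT-K1 the counts of falls and rises were 5 and 4 (19.2% and 15.4%), 1 and 4 (5.56% and 22.2%), and 4 and 2 (13.3% and 6.67%). The shares over all genes were 13.2% and 5.85%, and the medians of the classes were 0.00, 0.05 and -0.04. MRPS28 carries no such name in the table and belongs to no class. In HPB-ALL all SAHM1 arrays lay below all DMSO arrays in 38 genes (50.7%, against 15.7% of all genes) and above in 1, MRPS18A (1.33%, against 13.4%). In KOPT-K1 they lay below in 22 (29.3%, against 21.6%) and above in 22 (29.3%, against 13.5%).

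Several members with roles outside translation did not pass in either line. MRPL41, which has been linked to growth arrest and cell death, changed by 0.08 ± 0.05 (SE) in KOPT-K1 and -0.04 ± 0.05 in HPB-ALL. MRPL44, which resembles an RNase, changed by -0.05 ± 0.06 and -0.08 ± 0.06. MRPL58, a peptidyl-tRNA hydrolase built into the ribosome, changed by -0.02 ± 0.08 and -0.15 ± 0.08. The pseudogene MRPL45P2 changed by 0.05 ± 0.08 and 0.09 ± 0.08, and MRPL20-AS1 by -0.06 ± 0.07 and -0.03 ± 0.07.

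Of 4 measured proteins of the mitochondrial ribosome that carry other names, 1 fell and 1 rose in KOPT-K1, and 2 fell in HPB-ALL. For this list and those below, 13.2% of all genes fell and 5.85% rose in KOPT-K1. The shares over all genes in HPB-ALL were 4.38% and 4.96%. CHCHD1 rose by 0.31 ± 0.07 (SE) in KOPT-K1 and fell by 0.34 ± 0.07 in HPB-ALL (limma adjusted p = 0.00685 and 0.00783). GADD45GIP1 fell by 0.20 in HPB-ALL, a call lost without any one of 11 of the 12 arrays. PTCD3, which binds messages at the small subunit, fell by 0.28 in KOPT-K1, a call lost without any one of 5 of its 6 arrays, and DAP3 passed in neither line. Of 28 assembly and RNA modification factors, 7 fell in KOPT-K1 (25%) and 4 in HPB-ALL (14.3%). By limma 0 rose in either line (2 were higher at an unadjusted p under 0.05 in KOPT-K1 and 0 in HPB-ALL). TRUB2, a pseudouridine synthase, fell in both (-0.57 ± 0.07 and -0.36 ± 0.07), and RBFA, which matures the small subunit, fell in KOPT-K1 alone by this test (-0.61 ± 0.08, against 0.00 ± 0.08, with adjusted p = 0.0035 for the difference).

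Of 15 measured mitochondrial translation factors, 5 fell (33.3%) and 1 rose (6.67%) in KOPT-K1, and 1 fell (6.67%) and 2 rose (13.3%) in HPB-ALL. MTIF2, the initiation factor, fell by 0.60 ± 0.08 (SE) in KOPT-K1 and rose by 0.32 ± 0.08 in HPB-ALL (limma adjusted p = 3.42e-04 for the difference). GUF1 fell by 0.80 and the recycling factor MRRF by 0.68 in KOPT-K1. SLIRP, which with LRPPRC protects mitochondrial messages, rose by 0.20 ± 0.05 in KOPT-K1 and fell by 0.42 ± 0.05 in HPB-ALL, whereas LRPPRC fell by 0.43 in KOPT-K1. Of 16 genes for transcription of mitochondrial DNA and RNA processing, 6 fell in KOPT-K1 (37.5%) and 2 in HPB-ALL (12.5%). By limma 0 rose (1 was higher in each line at an unadjusted p under 0.05). PNPT1, an RNA-degrading enzyme, fell in both (-0.36 and -0.31), and POLRMT, the mitochondrial RNA polymerase, fell by 0.33 in HPB-ALL. The HPB-ALL calls of MTIF2 and PNPT1 were lost without any one of 4 arrays of that line, that of POLRMT without any one of 5, and the KOPT-K1 rise of SLIRP without any one of 3, with limma adjusted p up to 0.109, 0.0628, 0.146 and 0.0763.

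Of 10 nuclear regulators of mitochondrial genes, 4 fell in KOPT-K1 (40%), and 3 fell (30%) and 1 rose (10%) in HPB-ALL. MYC fell by 0.69 ± 0.07 (SE) and 0.65 ± 0.07, with a difference between lines of 0.05 ± 0.10 (limma adjusted p = 0.798). PPRC1, a coactivator of NRF1, fell by 0.79 ± 0.12 and 0.61 ± 0.12. GABPA, the ETS factor named above, fell by 0.24 ± 0.07 in KOPT-K1 and rose by 0.29 ± 0.07 in HPB-ALL (adjusted p = 0.00475 for the difference), but each of its 2 calls was lost without any one of 5 arrays (adjusted p up to 0.133 and 0.115).

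Beside these groups stood the respiratory chain and the cytosolic ribosome. Of 68 nuclear genes for respiratory chain and ATP synthase subunits, 3 fell (4.41%) and 13 rose (19.1%) in KOPT-K1 (median 0.06), against 13.2% and 5.85% of all genes. In HPB-ALL 8 fell (11.8%, against 4.38%) and 0 rose by limma (median -0.08, 3 higher at an unadjusted p under 0.05). UQCRQ of complex III rose by 0.45 ± 0.07 (SE) in KOPT-K1, and ATP5MC1 of ATP synthase fell by 0.32 ± 0.06 in HPB-ALL. Of 57 cytosolic ribosomal protein genes, 4 fell (7.02%) and 6 rose (10.5%) in KOPT-K1 (median 0.01). In HPB-ALL 0 passed by limma (3 were lower and 0 higher at an unadjusted p under 0.05), with a median of -0.02, where the mitochondrial set had 21 and -0.12.

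**Figure D5:**
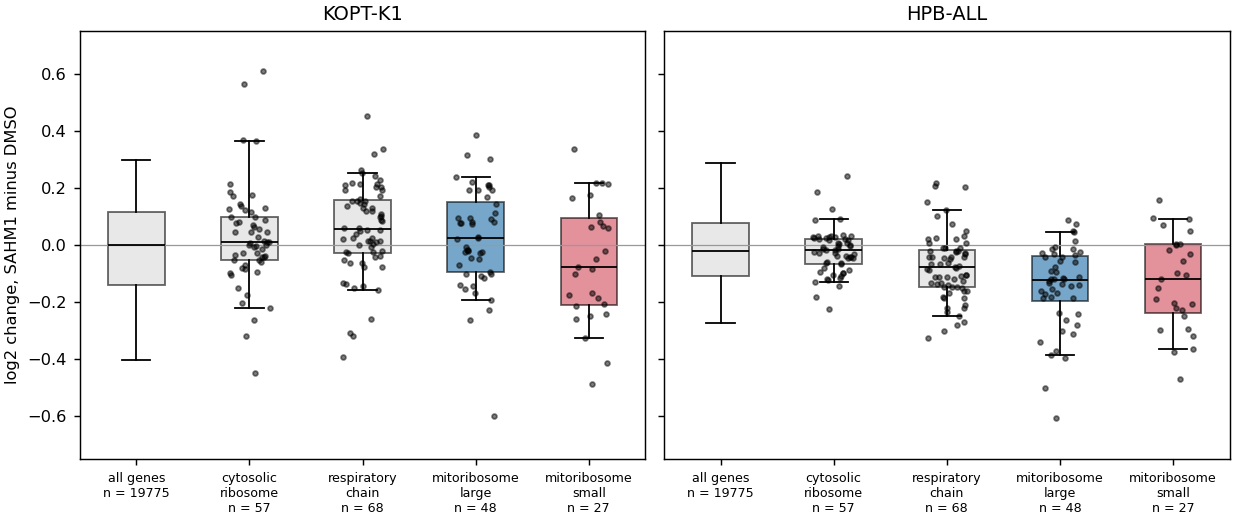
Log2 change, SAHM1 minus DMSO, in KOPT-K1 (left) and HPB-ALL (right) for all 19775 genes, 57 cytosolic ribosomal protein genes, 68 respiratory chain genes, and the 48 large and 27 small subunit genes, by symbol, of the mitochondrial ribosome. Boxes span the quartiles with the median, whiskers run from the 5th to the 95th percentile, and dots are genes. Both mitochondrial subunit medians are -0.12 in HPB-ALL, and in KOPT-K1 they are 0.02 (large) and -0.08 (small).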

How the data were processed

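Affymetrix U133 Plus 2.0 arrays were run on 12 cultures, 3 for each of 4 groups. Per the submitters' processing notes the arrays were processed with RMA, which corrects background, normalizes and summarises probes; no version is given in the sources used here. Each value, as deposited, is a linear ratio: in all 54675 probe sets the DMSO arrays of each line averaged 1, within a tolerance of 1e-06. Levels are lost, so no filter on low values could be applied, and depth has no counterpart on arrays, whose number limits the precision.

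The ratios were turned to log2, and probe sets with the same single symbol of the platform annotation (41097 probe sets) were averaged to 19775 genes. One limma model (version 3.58.1, R 4.3.3; lmFit and eBayes, two-sided) covered the 12 arrays, with a term per group and 8 residual degrees of freedom. A gene was called where its p, adjusted over all genes by Benjamini-Hochberg, was under 0.05. Single probe sets were fitted the same way. Summaries used Python 3.11.15 and pandas 2.3.3, and plots matplotlib 3.10.9. On simulated data for 19775 genes the steps recovered 8% of genes changed by 0.25 and 53% of those changed by 0.5 (log2) in KOPT-K1, and 11% and 63% in HPB-ALL. There 100 genes changed by each size and 19575 did not, whereas in the data 2605 genes fell and 1156 rose in KOPT-K1. The Benjamini-Hochberg cutoff is stricter where fewer genes change, so these rates do not carry over to the data. Both lines were simulated with the same spread, so the gap between them is no difference in precision.

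Members, lists of genes and the naming rule were all chosen with earlier results of these data known. The rule named members called in both lines, up to 12 per line and direction by smallest adjusted p, the 10 with the smallest adjusted p for the difference, the extremes per subunit and a short fixed list. Of each wider list it named up to 4 called genes per line, and MYC always. MRPL46, MRPS17, MRPS33, MRPS27, MRPL48 and the pseudogene and antisense genes fall outside it and were named after their values were seen. The sequence stretches were also chosen after the motif search, in place of the 4 promoters that the rule picked. Same-numbered DMSO and SAHM1 arrays did not deviate together (correlations of deviations from -0.055 to 0.068 over 19775 genes), so the numbers were not used as pairs. The labels speak of triplicate cultures, so every p-value rests on variation among cultures of 1 experiment. The alternatives were other normalizations, probe set choices and covariates, a replicate block, and leaving out each array.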

Additional observations from a re-analysis of the deposited data

Results flagged for a closer look

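The response to SAHM1 differed between the lines (HPB-ALL response minus KOPT-K1 response, limma's test of that difference) in 24 members. The 20 lower in HPB-ALL had log2 differences of -0.83 (MRPL24), -0.70 (MRPL14), -0.69 (MRPS7), -0.58 (MRPL34), -0.58 (MRPS28), -0.55 (MRPS26), -0.52 (MRPL12), -0.49 (MRPL11), -0.49 (MRPS15), -0.47 (MRPL27), -0.45 (MRPL15), -0.44 (MRPL54), -0.39 (MRPL16), -0.38 (MRPS34), -0.36 (MRPS12), -0.35 (MRPS27), -0.33 (MRPL51), -0.33 (MRPS33), -0.32 (MRPS6) and -0.31 (MRPL48). The 4 higher in HPB-ALL were 0.49 (MRPS30), 0.36 (MRPL40), 0.31 (MRPS18B) and 0.30 (MRPS5). Of the 20, 16 kept the call without any single array, and of the 4, MRPS30 did.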

How the results depend on the processing

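Quantile normalization of the ratios left 0 falls and 0 rises in KOPT-K1, 8 falls in HPB-ALL, and 6 lower and 0 higher for the difference between lines. The large minus small difference of medians in KOPT-K1 was 0.0669 there, 0.17 without _x_at and _s_at probe sets, 0.0689 with the spike covariate and 0.0576 by structure, against 0.10; by structure it was 0.0317 in HPB-ALL. Without those probe sets 44 members were measured. KOPT-K1 then had 8 falls and 3 rises (18.2% and 6.82%, against 9.96% and 4.64% of all genes). HPB-ALL had 7 falls and 0 rises (15.9% and 0%, against 2.19% and 3.77%). For the difference 9 were lower and 5 higher (20.5% and 11.4%, against 3.69% and 9.58%). The median over probe sets gave 2 higher for the difference. With the 6 arrays of the line alone, KOPT-K1 had 6 falls and 3 rises (8% and 4%, against 9.62% and 3.15% of all genes). At an unadjusted p under 0.05 by limma, 21.3% of members were lower and 22.7% higher there, against 18.5% and 10.9% of all genes. The 18S covariate gave 0 falls in HPB-ALL, and 2 lower and 0 higher for the difference. The spike covariate gave 4 falls and 1 rise in KOPT-K1, and 5 lower and 0 higher for the difference. The median standard error of the members in KOPT-K1 was 0.0660 in the main fit, 0.0772 with quantile normalization and 0.0930 with the spike covariate. The causes of these moves were not tested, except that fewer members or arrays enter by construction in some. Quantile normalization also sets a common distribution on all arrays by construction.

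With a replicate block, KOPT-K1 had 7 falls and 4 rises (9.33% and 5.33%, against 10.9% and 4.62% of all genes). HPB-ALL had 14 falls (18.7%, against 2.87%), and the difference 17 lower and 2 higher (22.7% and 2.67%, against 3.92% and 9.31%). The numbers did not pair the arrays.

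Leaving out each array gave 6 to 11 falls and 3 to 11 rises in KOPT-K1, 10 to 20 falls and 0 rises in HPB-ALL, 16 to 22 lower and 1 to 5 higher for the difference, and large minus small medians of 0.0502 to 0.115 in KOPT-K1 and -0.0146 to 0.0252 in HPB-ALL. Shares over all genes are not given for these fits, so their counts cannot be set beside all genes. In the 150 bases before the start the YY1 and E-box shares were each 4.82%, beside 0.814% and 4.57% of all windows, where the longer window gave 26.5% and 10.8%, beside 2.89% and 7.26%. No gene named here changed its direction in a call under any of these settings. The simulation held fewer changed genes than were called here, so its recovery is only a rough limit for changes of 0.25 or less. Array levels over background are not known from ratios.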
